A study of Mus musculus with 4 samples.

Results

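Mucosal Th1 cells are the nuclei that carry the label Mucosal Th1 in the authors' cell annotation, and chromatin accessibility of these nuclei is described here. The label held 1100 of 15621 labelled nuclei, namely 904 of 7155 in the library from the cecum and 196 of 8466 in the library from the tumor. The nuclei came from T cells sorted from mice 4 weeks after transplantation of AKP tumors, either from the tumor or from tumor-free cecum next to it. AKP tumors grow from cancer organoids injected into the wall of the cecum, so the cecum sample came from organ that carried a tumor as well. Each tissue gave 1 multiome preparation, in which RNA and accessible DNA (ATAC) are read from the same nucleus, and no library came from a mouse without a tumor. Strain, age and number of the host mice of these libraries are not given in the sources used here. The authors set the 17 labels from RNA of these nuclei, and the RNA counts were not analysed here, so accessibility values did not set the labels. The labelled nuclei had, however, passed the authors' filters on ATAC fragments and their enrichment at gene starts. The label was also picked for description with earlier results of these data known. With 1 library per tissue there was no replicate and no test. Intervals in parentheses are exact at 95% and hold counting error alone.

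T helper 1 (Th1) cells are CD4+ T cells that make interferon gamma, which activates macrophages and other cells against intracellular microbes and tumors. The transcription factor T-bet, encoded by Tbx21, drives their differentiation under interferon gamma and interleukin 12 signalling, and binds the T-box element in regulatory DNA. In the gut mucosa they live beside Th17 cells, which make interleukin 17, follicular helper (Tfh) cells, which help B cells, and regulatory T cells. ATAC reads where the transposase can cut, so a fragment marks open chromatin and not transcription.

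The promoters below are shown because they are the start-site DNA of the interferon gamma gene, of the gene for T-bet, of 2 genes that were more open in Mucosal Th1 cells than in a comparator (Samd3, Nkg7), and of Il17a, the signature cytokine gene of the Th17 comparator. Each line gives the 250 bases before the start in RefSeq (GRCm38.p6), 5′ to 3′ on the gene's strand, in lower case, with a match to the T-box letters TCACACC or their reverse complement in capitals.
Ifng (chr10:118440796-118441045, plus strand): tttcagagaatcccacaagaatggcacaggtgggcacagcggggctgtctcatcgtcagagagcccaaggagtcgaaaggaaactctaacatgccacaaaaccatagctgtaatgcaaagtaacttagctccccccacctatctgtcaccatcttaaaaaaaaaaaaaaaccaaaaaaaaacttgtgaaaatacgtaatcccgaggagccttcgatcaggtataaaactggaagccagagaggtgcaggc
Tbx21 (chr11:97115332-97115581, minus strand): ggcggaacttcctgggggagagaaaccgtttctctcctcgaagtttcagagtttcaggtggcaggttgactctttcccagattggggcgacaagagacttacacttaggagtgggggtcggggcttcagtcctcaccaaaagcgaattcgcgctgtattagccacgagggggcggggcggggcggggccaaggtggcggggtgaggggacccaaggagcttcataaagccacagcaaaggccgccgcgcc
Samd3 (chr10:26229457-26229706, plus strand): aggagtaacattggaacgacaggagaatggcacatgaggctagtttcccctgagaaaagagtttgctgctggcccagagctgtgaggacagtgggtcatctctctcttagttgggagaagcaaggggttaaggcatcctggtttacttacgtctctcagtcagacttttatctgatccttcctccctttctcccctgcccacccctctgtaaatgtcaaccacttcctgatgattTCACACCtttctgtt
Nkg7 (chr7:43436888-43437137, plus strand): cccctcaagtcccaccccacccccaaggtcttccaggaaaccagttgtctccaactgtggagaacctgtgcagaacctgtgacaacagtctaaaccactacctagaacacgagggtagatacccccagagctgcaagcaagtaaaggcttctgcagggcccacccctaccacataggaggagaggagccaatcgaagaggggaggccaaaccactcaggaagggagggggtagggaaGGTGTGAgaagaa
Il17a (chr1:20730655-20730904, plus strand): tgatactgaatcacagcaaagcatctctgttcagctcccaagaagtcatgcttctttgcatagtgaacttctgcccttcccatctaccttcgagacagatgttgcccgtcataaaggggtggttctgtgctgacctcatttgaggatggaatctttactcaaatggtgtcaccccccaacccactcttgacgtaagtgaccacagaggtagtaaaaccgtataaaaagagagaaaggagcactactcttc
Values at these promoters were counted in a window of 300 bases that runs from 250 bases before the start to 50 after it, as fragments per 1000000 fragments of the label in that library (FPM). At the Ifng promoter, Mucosal Th1 cells had 24.8 FPM in the cecum, Th17 cells 4.59 and Tfh-like cells 4.22. In the tumor the same promoter had 24.7 FPM in Mucosal Th1, 6.41 in Th17 and 12.5 in Tfh-like cells. Mucosal Th1 cells were thus highest of the 3 labels in both libraries, with log2 ratios over Th17 of 2.43 (1.04 to 4.33) and 1.95 (1.02 to 2.94) in cecum and tumor; over Tfh-like cells the tumor interval, -0.22 to 2.41, held 0. At the Samd3 promoter Mucosal Th1 cells had 66 fragments (12.5 FPM) in cecal nuclei and 15 (11.6 FPM) in the tumor, against 0 in Th17 cells of either library. With 3 fragments put in place of 0, the log2 ratio over Th17 was 1.86 in cecal nuclei and 3.17 in the tumor. The lower interval bounds from the counts were 1.52 and 2.70. Tfh-like cells had 0 fragments at this promoter in the cecum and 3 in the tumor (5.35 FPM). The log2 ratio over them in the tumor, 1.11, had an interval that held 0 (-0.71 to 3.54). Cytotoxic CD8 cells had 9.44 and 5.86 FPM there in cecum and tumor, and PD1+ CD4 cells of the tumor 5.86. The Nkg7 promoter had 7.01 FPM in Mucosal Th1, 1.15 in Th17 and 0.469 in Tfh-like cells of the cecum, the latter 2 values resting on 1 fragment each. In the tumor it had 8.49, 1.71 and 3.57 FPM, and the log2 ratio over Tfh-like cells, 1.25, had an interval that held 0 (-0.94 to 4.47). Cytotoxic CD8 cells had 18.0 and 22.4 FPM at this promoter in cecum and tumor, above Mucosal Th1 cells. The Il17a promoter was open in Th17 cells (41.3 FPM in cecum, 31.6 in tumor) and nearly closed in Mucosal Th1 cells (0.758 and 0.772 FPM). The Tbx21 promoter itself did not separate the labels in the cecum, at 12.1, 11.5 and 11.3 FPM in Mucosal Th1, Th17 and Tfh-like cells. In the tumor it had 8.49 FPM in Mucosal Th1, 3.42 in Th17 and 8.92 in Tfh-like cells, and the log2 ratio over Th17, 1.31, had an interval that held 0 (-0.14 to 2.83).

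The T-box letters lay in the 250 bases before the start of Samd3, 15 bases before it, and of Nkg7, 13 bases before it, and were not found in those of Ifng, Tbx21 or Il17a. The promoter of Il12rb2, another gene more open than in Th17 cells, is not printed above, and its 250 bases held no match. In the 250 bases before the start and on both strands, 539 of 17492 promoters of all genes (3.08%) held TCACACC. Among genes more open in Mucosal Th1 than in Th17 cells (defined below) 3 of the 26 with a promoter entry held it (11.5%), and among genes less open 2 of 81 (2.47%). Against Tfh-like cells these numbers were 4 of 61 (6.56%) and 0 of 36. Among the same 26 promoters, the AP-1 letters TGANTCA and the STAT letters TTCNNNGAA were each found in 3 as well (11.5%), against 6.08% and 6.58% of all promoters. The counts are small and describe letters, not binding.

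The defining markers were open in the labelled cells, and several other labels shared the type 1 part. Gene accessibility was the FPM over the gene's span with 5 kb on both sides. Over Cd4, the co-receptor gene, Mucosal Th1 cells had 109.6 FPM in cecal nuclei (101 to 119) and 99.6 in the tumor (83.1 to 118). Both were the highest values among the labels with at least 50 nuclei, but the next label, CCR7+ CD4, had 94.7 and 94.5 FPM, and the log2 ratios over it, 0.21 (-0.08 to 0.51) and 0.07 (-0.36 to 0.52), did not exceed counting error. Over the CD8 genes, Cd8a and Cd8b1, Mucosal Th1 cells had 10.05 and 13.5 FPM in cecal nuclei and 6.18 and 10.03 in the tumor, where Cytotoxic CD8 cells had between 86.6 and 101.5. Over Tbx21 (chr11:97098007-97115331) Mucosal Th1 cells had 141 FPM in the cecum library (131 to 151) and 124 in the tumor (105 to 144). That placed them at order 3 in cecal nuclei and 5 in the tumor, under Cytotoxic CD8 cells (157 and 156) and far above Th17 cells (54.0 and 38.0), Tfh-like cells (68.9 and 71.3) and CCR7+ CD4 cells (18.4 and 28.8). Over Ifng (chr10:118441046-118445894) they had 45.7 FPM (40.1 to 51.8) and 44.0 FPM (33.3 to 57.0). Ifng in the cytotoxic labels was alike, at 45.5 and 48.7 FPM in Cytotoxic CD8 and 48.6 and 53.6 in PD1+ CD8 cells, so their order did not exceed counting error. CCR7+ CD4 cells, by contrast, had 0.838 FPM in cecal nuclei and 0 fragments in the tumor.

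**Figure D1:**
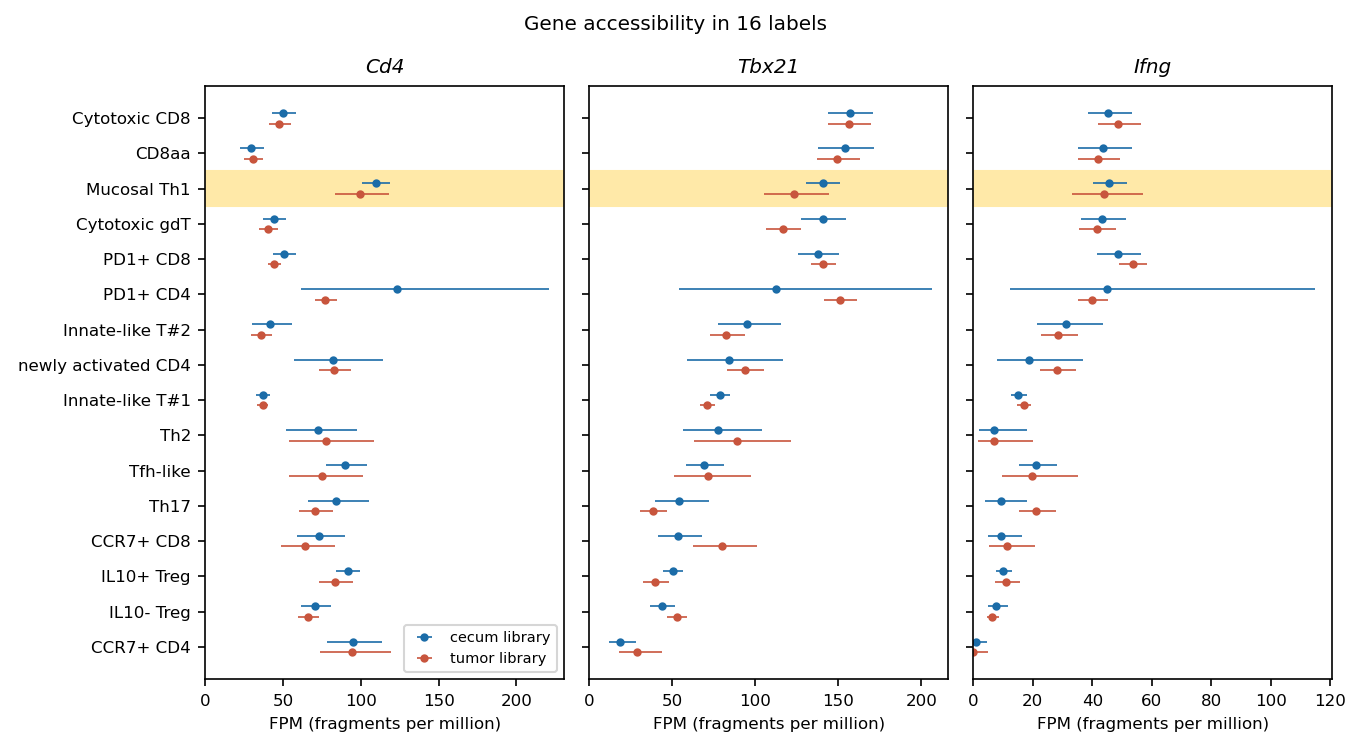
Accessibility in FPM (horizontal axes) of Cd4, Tbx21 and Ifng in 16 of the 17 labels (vertical axis), with points for the cecum (blue) and tumor (red) libraries and bars for exact 95% counting intervals. Mucosal Th1 cells (shaded) have the highest Cd4 values of the labels with at least 50 nuclei and share the high Tbx21 and Ifng range with the Cytotoxic CD8 and Cytotoxic gdT labels.

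Genes of other T cell classes were low or unremarkable in Mucosal Th1 cells. Il17a had 2.84 and 1.54 FPM in cecum and tumor, against 82.7 and 68.0 in Th17 cells, and the gamma-delta receptor gene Trdc had 1.52 and 0.772 FPM. Foxp3, the regulatory T cell factor, stood at 35.8 and 37.8 FPM, and Gata3, the Th2 factor, at 194 and 193 FPM. The 2 CD8 genes summed to 23.5 FPM in cecal nuclei and 16.2 in the tumor. Markers of cells outside the sort summed to 137 and 149 FPM for 6 B cell genes, 106 and 114 FPM for 6 myeloid genes, and 147 and 166 FPM for 10 epithelial genes, in cecum and tumor. Of these genes, 1 epithelial gene was at 0 in the tumor, and every sum lay within the range of the 17 labels. What stray nuclei add to the results was not tested.

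Mucosal Th1 cells made up 12.6% of labelled nuclei in the cecum library (11.9 to 13.4) and 2.32% in the tumor (2.01 to 2.66). Among the 9 CD4+ labels they were 29.4% of 3072 nuclei in the cecum library (27.8 to 31.1) and 6.40% of 3063 in the tumor (5.56 to 7.32). Of all Mucosal Th1 nuclei 82.2% came from the cecum library, which held 45.8% of all labelled nuclei. Fewer cells of the label and a different recovery of nuclei cannot be told apart with 1 library per tissue. The comparators were distributed otherwise: Th17 cells numbered 131 in the cecum library and 293 in the tumor library, Tfh-like cells 311 and 89, and PD1+ CD4 cells 14 and 616. The paper describes 2 Th1 clusters in these tissues, and its PD-1+ Th1 cluster seemed confined to tumors. The PD1+ CD4 label has such a distribution, so the share of Mucosal Th1 cells need not be the share of all Th1 cells. The median Mucosal Th1 nucleus gave 4425.5 fragments in the cecum library (5275674 in all) and 5090 in the tumor library (1295529 in all), and 130 and 25 of them had fewer than 1000. The whole libraries held 66466111 and 96747563 fragments, of which 66.2% and 64.2% lay in labelled nuclei. The libraries shared 84 labelled barcodes, of which 13 were Mucosal Th1 in the cecum, 2 in the tumor and 0 in both.

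Shares of single nuclei were read after each was thinned to 2000 fragments and shallower nuclei were left out, 258 of 904 Mucosal Th1 nuclei of the cecum and 48 of 196 of the tumor. A Tbx21 fragment was found in 24.8% of the thinned Mucosal Th1 nuclei of the cecum (21.5 to 28.3), in 10.8% of Th17 (5.51 to 18.5) and in 14.9% of Tfh-like nuclei (10.6 to 20.1). In the tumor the shares were 24.3% (17.7 to 32.1), 4.88% (2.55 to 8.37) and 4.23% (0.880 to 11.9). An Ifng fragment was found in 7.74% of thinned Mucosal Th1 nuclei of the cecum, against 0.980% in Th17, 2.98% in Tfh-like and 7.71% in Cytotoxic CD8 nuclei. In the tumor the Ifng shares were 7.43% (3.77 to 12.9) in Mucosal Th1, 4.07% (1.97 to 7.35) in Th17 and 2.82% (0.343 to 9.81) in Tfh-like nuclei, with overlapping intervals. At the depth as sequenced, the Mucosal Th1 shares were 44.2% for Tbx21 and 19.8% for Ifng in the cecum. For each gene taken alone, most nuclei of the label thus gave no fragment, which at these depths does not mark a nucleus as closed.

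Against Th17 cells, the gut T helper class with the opposite program, Mucosal Th1 cells were more open at the T-bet and interferon gamma genes and at the interleukin 12 receptor, and less open at Il17a and other genes of the Th17 program. Single-gene log2 ratios come from counts. Il12rb2, the inducible chain of the interleukin 12 receptor, had 169.8 FPM in Mucosal Th1 and 62.0 in Th17 cells of the cecum, and 161 and 54.7 FPM in tumor nuclei. The log2 ratios were 1.45 (1.06 to 1.88) and 1.55 (1.23 to 1.88), nearly the same in both libraries. The ratios of Tbx21 were 1.38 (0.96 to 1.84) in cecal nuclei and 1.70 (1.32 to 2.09) in the tumor. The ratios of Ifng were 2.31 (1.31 to 3.54) in the cecum library and 1.07 (0.49 to 1.65) in the tumor library, with overlapping intervals; Th17 cells had 9.19 FPM in the former and 20.9 in the latter. Counted within 1 kb of the gene ends alone, the smaller ratio of the 2 libraries was 0.39 for Tbx21, so its call rests on the wider span, and that of Ifng was 0.92 with a pseudocount of 5. Ccl5, a chemokine gene of effector and memory T cells, had log2 ratios of 2.50 (1.60 to 3.57) and 1.85 (1.27 to 2.45).

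Across all genes a gene was called when its log2 ratio on the FPM + 1 scale reached 1 or -1 in the same direction in both libraries, among genes with at least 50 fragments over both labels in each. Over Th17, 12958 genes qualified, of which 36 were higher (0.278%) and 108 lower (0.833%) in Mucosal Th1 cells. The second count was 56 without nuclei above 3 times their library's median fragment count, and 13 when only the 1 kb around the gene ends was read, where the first was 8. Of 20 qualifying members of the type 1 program list, 4 were higher (Tbx21, Ifng, Il12rb2, Ccl5) and 0 lower. The list's median log2 ratio was 0.26 in cecal nuclei and 0.25 in the tumor, against 0.05 and 0.04 over all genes tested. Some other members lay closer to 0, among them the signal transducer Stat4 (0.20 and 0.01), the factor Runx3 (0.12 and 0.20) and the interleukin 18 receptor gene Il18r1 (-0.41 and -0.15). Nkg7, a further member, was not called but had 62.2 FPM against 27.6 in Th17 in cecal nuclei, and 50.2 against 29.1 in the tumor. Cxcr3, the chemokine receptor of Th1 cells, had log2 ratios of 1.27 (0.60 to 2.03) and 1.02 (0.52 to 1.53) but missed the call on the FPM + 1 scale. Ccl4, another effector chemokine gene, and Prf1, which encodes perforin, were under the fragment minimum; Ccl4 had 23.9 FPM in Mucosal Th1 against 5.74 in Th17 in cecal nuclei, and 27.0 against 2.99 in the tumor.

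By the smaller ratio of the 2 libraries, the leading gene was Samd3, which encodes a protein with a sterile alpha motif domain. It had 39.995 FPM in Mucosal Th1, 4.59 in Th17 and 8.44 in Tfh-like cells of the cecum, and 40.1, 5.98 and 12.5 FPM in tumor nuclei. Mucosal Th1 cells were well above both comparators in each library, with log2 ratios over Th17 of 3.12 (1.74 to 5.01) and 2.75 (1.87 to 3.71). The span lies beside L3mbtl3, whose window overlaps it. By the rule for named genes the others were Cacng8, a calcium channel subunit gene (2.85 and 2.69), Mctp2 (1.89 and 2.51), Ccl5, the olfactory receptor gene Olfr156 (2.21 and 1.85), Gas7 (described below), the dermatan sulfate epimerase gene Dse (1.61 and 1.79) and the sodium-coupled inositol transporter gene Slc5a11 (1.69 and 1.61), each with cecum before tumor.

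The genes with the lowest ratios over Th17 were led by Il17a, at -4.86 (-5.77 to -4.05) in cecal nuclei and -5.46 (-8.52 to -3.58) in the tumor. Ppp1r14c, a phosphatase inhibitor gene, had 3.41 FPM in Mucosal Th1 and 72.3 in Th17 cells of the cecum, and 2.32 and 54.7 FPM in tumor nuclei. The interleukin 1 receptor gene Il1r1 had 25.2 and 212 FPM in cecal nuclei, and 23.9 and 192 FPM in the tumor. Krt28, Shisal2b, Adamts16, the stem cell factor receptor gene Kit and BC053393 followed, with log2 ratios from -2.73 to -4.41. Of 10 qualifying members of the type 17 program list, 7 were lower and 0 higher, with list medians of -1.63 and -1.06. Those named here are Il17a, the interleukin 23 receptor gene Il23r, Il1r1, the chemokine receptor gene Ccr6, and Tmem176a and Tmem176b, whose windows overlap. Rora, a nuclear receptor gene, had 661 and 654 FPM and log2 ratios of -0.52 in both libraries.

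**Figure D2:**
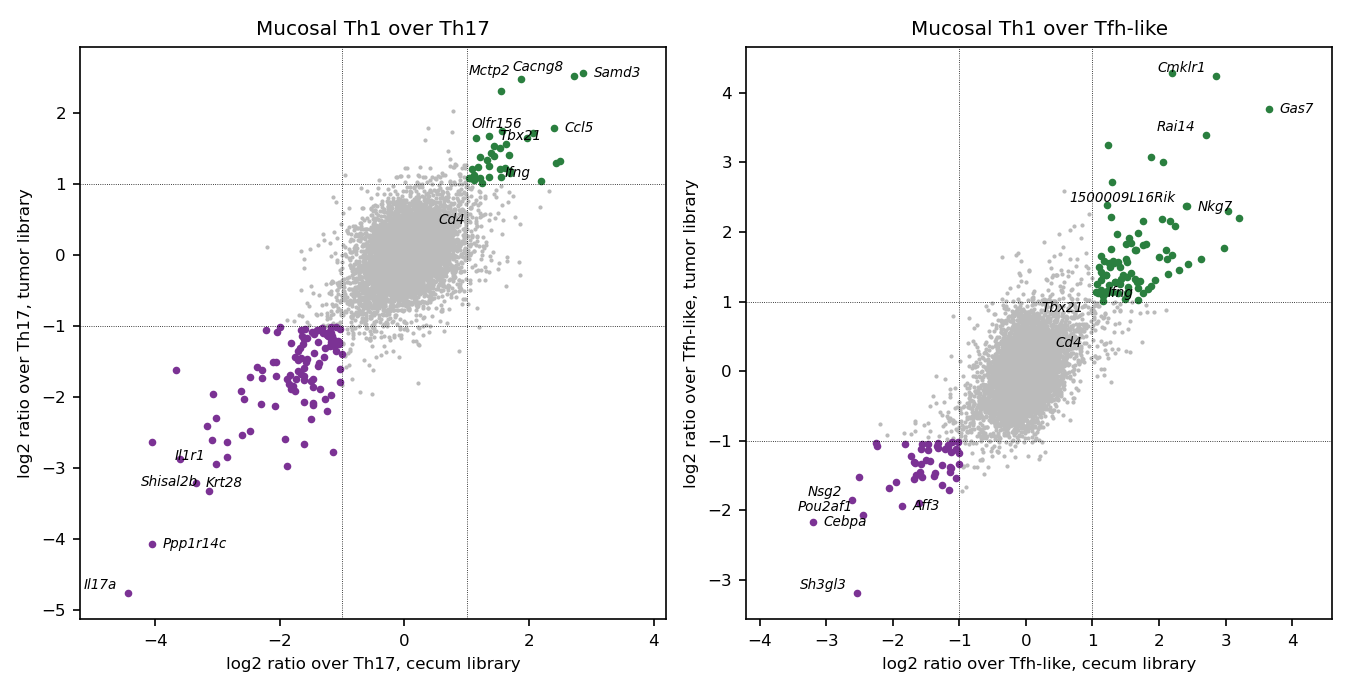
Each point is a gene with the fragment minimum, placed by its log2 ratio (FPM + 1) of Mucosal Th1 over Th17 (left) or Tfh-like cells (right) in the cecum library (horizontal) and the tumor library (vertical). Green and purple mark the 36 and 86 genes called higher and the 108 and 48 called lower; dotted lines are at 1 and -1.

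Tfh-like cells are the second comparator. Of 11169 qualifying genes, 86 were higher in Mucosal Th1 (0.77%) and 48 lower (0.43%), and 9 and 9 within 1 kb of the gene ends, with the median over all genes at 0.00 in cecal nuclei and -0.02 in the tumor. Leaving out, for each gene, the nucleus that gave it most fragments in each label and library, a setting chosen after seeing the data, left 31 lower. Gas7, a gene named for growth arrest, had 147 FPM in Mucosal Th1 and 10.8 in Tfh-like cells of the cecum, and 159 and 10.7 FPM in tumor nuclei. Its log2 ratios of 3.77 (3.17 to 4.43) and 3.89 (2.75 to 5.36) were the highest by the rule. Cmklr1, the chemerin receptor gene, had 43.8 and 5.16 FPM in cecal nuclei, and 51.7 and 1.78 FPM in the tumor, where the Tfh-like value rests on 1 fragment. Nkg7, a cytotoxic granule protein gene, had 62.2 and 10.8 FPM in cecal nuclei, and 50.2 and 8.92 FPM in the tumor; its window overlaps those of 4 other genes. Rai14, 1500009L16Rik, Gcnt2, Crispld2 and Dhrs9 were also named, with log2 ratios between 2.35 and 4.90. The highest of these, that of Crispld2 in the tumor, rests on 1 Tfh-like fragment as well (2.37 to 10.2).

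The genes lower than in Tfh-like cells included known genes of B cells and B cell help. Pou2af1, which encodes an octamer coactivator first described in B cells, had 19.3 FPM in Mucosal Th1 and 110.2 in Tfh-like cells of the cecum, and 19.3 and 83.8 FPM in tumor nuclei. Pax5, a B cell lineage factor, had 21.0 and 90.5 FPM in cecal nuclei, and 23.2 and 76.7 FPM in the tumor. Cebpa, a myeloid factor gene, had 7.01 and 72.7 FPM in cecal nuclei, and 14.7 and 69.6 FPM in the tumor. The 6 B cell marker genes, which include Pax5, summed to 226 FPM in Tfh-like cells of the cecum, the highest of the 17 labels there, against 137 in Mucosal Th1 cells, and to 196 in the tumor, where Innate-like T#2 cells had 207 and Mucosal Th1 cells 149; its part in these ratios was not tested. Sh3gl3, Aff3, Nsg2, Iglon5 and the anchoring protein gene Akap6 completed the rule, with log2 ratios from -1.61 to -3.33.

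From the follicular helper list 3 of 13 qualifying genes were lower in Mucosal Th1 cells and 0 higher. They were the follicle-homing receptor gene Cxcr5 (67.5 against 158 FPM in the cecum, 78.0 against 171 in the tumor), the cytokine gene Il21 (20.1 against 65.7, and 21.6 against 55.3) and Pou2af1. Bcl6, the Tfh factor gene, differed little, with log2 ratios of -0.30 (-0.49 to -0.11) and -0.12 (-0.51 to 0.28). From the type 1 program 3 of 19 were higher (Ifng, Ccl5, Nkg7), with list medians of 0.62 and 0.37. The call of Ifng ended within 1 kb of the gene ends (0.76) and with a pseudocount of 5 (0.96). Tbx21 reached 1.03 (0.77 to 1.29) in the cecum but 0.79 (0.28 to 1.33) in the tumor, and was not called. Itgae, which encodes the integrin CD103 that binds epithelial E-cadherin, had log2 ratios of 0.56 (0.31 to 0.82) and 1.07 (0.56 to 1.61).

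Of 11167 genes tested against both comparators, 15 were higher in Mucosal Th1 than in Th17 and in Tfh-like cells in both libraries, and 2 were lower. The 15 included Ifng, whose calls depend on the settings given above, Ccl5, Samd3, Gas7, Cacng8, Slc5a11, Rai14, the activating receptor gene Slamf7, the ectoenzyme gene Bst1 and the netrin receptor gene Unc5c. Slamf7 had 106 FPM in Mucosal Th1, 32.2 in Th17 and 31.4 in Tfh-like cells of the cecum, and 98.0, 36.3 and 39.2 FPM in tumor nuclei. The 2 comparisons share the Mucosal Th1 nuclei, so the genes are a description of one group of cells. The lower genes were Nav2, a neuron navigator gene (135 FPM in Mucosal Th1 against 308 and 305 in the cecum), and Frmd5. Slamf7 was higher in Cytotoxic CD8 cells than in Mucosal Th1 cells, at 146 and 137 FPM. Over PD1+ CD4 cells of the tumor, 3 of the 15 had a log2 ratio past 1 (Unc5c 1.89, Spink13 1.55 and Samd3 1.15). Another 3 were under 0 (Lrrk1 -0.88, Ccl5 -0.34 and Slc5a11 -0.19). Over Cytotoxic CD8 cells 0 of the 15 were past 1 in both libraries and 6 were lower in both. Over CD8aa cells these counts were 0 and 5, and over Cytotoxic gdT cells 2 and 6.

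Few members of the other lists were called against these helper classes, as few genes were at all (0.278% higher and 0.833% lower than in Th17, 0.77% and 0.43% against Tfh-like), so a count of 0 says nothing particular of a list. Of 10 qualifying cytotoxic genes 0 were called against Th17, with medians of 0.49 and 0.45, and 3 of 12 qualified against Tfh-like cells, with 0 called and medians of 0.54 and 0.82; Gzmb, the granzyme B gene, had 33.0 FPM in Mucosal Th1 and 24.1 in Th17 cells of the cecum. Of 14 residency and gut-homing genes 0 were called over Th17, and of 11 that qualified 0 over Tfh-like cells, where their medians were 0.45 and 0.47. The same held for 10 TGF-beta genes in both comparisons and for 14 and 13 interferon-stimulated genes. The inhibitory receptor list gave 0 of 10 and 0 of 9 called. From the T cell receptor response list, 1 of 21 genes, Irf8, was higher than in Th17, at 41.1 against 18.4 FPM in cecal nuclei and 57.1 against 25.6 in the tumor. Il5, a type 2 cytokine gene, was lower than in Th17 cells (6.07 against 20.7 FPM in the cecum library, 4.63 against 22.7 in the tumor library), as was Zbtb16, a factor gene of innate-like T cells (29.4 against 90.7, and 34.0 against 71.4). Cdh1, the E-cadherin gene, was higher than in Tfh-like cells (99.1 against 34.7, and 118 against 57.1), as the only qualifying member of the 10 epithelial genes. Those genes summed to 84.4 and 99.9 FPM in Tfh-like cells of cecum and tumor, the lowest of all labels in both, against 147 and 166 in Mucosal Th1 cells. The part of this in the Cdh1 ratio was not tested. The call of Irf8 and that of Zbtb16 ended without the nuclei of high fragment count (0.85 and -0.70), and those of Irf8, Zbtb16 and Cdh1 with a pseudocount of 5 (0.98, -0.97 and 0.99).

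**Figure D3:**
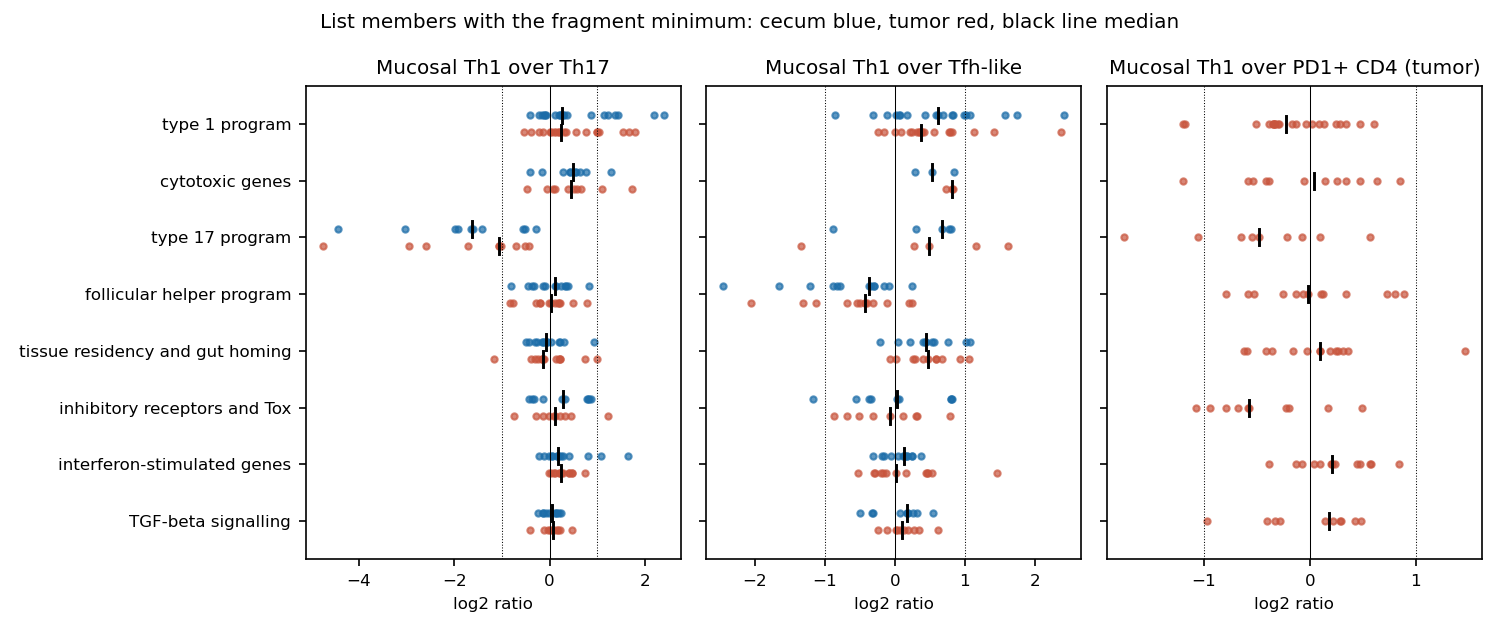
Log2 ratios (FPM + 1; horizontal axes) of list members with the fragment minimum, for Mucosal Th1 over Th17, Tfh-like and PD1+ CD4 cells, with cecum in blue, tumor in red and medians as black lines. The type 17 list is shifted to the left against Th17 (medians -1.63 and -1.06), while the residency (-0.08 and -0.13) and TGF-beta (0.05 and 0.07) medians lie near 0 there. The interferon-stimulated medians are 0.17 and 0.24, and those of the type 1 list 0.26 and 0.25.

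PD1+ CD4 cells, the most abundant of the 3 comparators in the tumor, were compared there only. Of 14589 qualifying genes, 72 were higher in Mucosal Th1 (0.494%) and 624 lower (4.28%), and the second count was 284 within 1 kb of the gene ends. The minimum sums both labels, and PD1+ CD4 cells held more fragments, so genes open in PD1+ CD4 cells alone passed it more easily; without the minimum the counts were 456 and 1083. The type 1 genes stood close together in both labels. Ifng had 44.0 FPM in Mucosal Th1 and 40.0 in PD1+ CD4 cells (log2 ratio 0.14, -0.31 to 0.56), and Tbx21 had 124 and 151 (-0.29, -0.54 to -0.05). Of 22 type 1 genes 0 were higher and 2 lower, the interleukin 18 receptor chain gene Il18rap (47.9 against 111 FPM, not called within 1 kb of the gene ends) and the chemokine gene Ccl3 (4.63 against 11.7, not called with a pseudocount of 5), with a list median of -0.23 against 0.07 over all genes.

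Of 10 inhibitory receptor genes, 1 was called lower and 0 higher, where 4.28% of all genes were lower, with log2 ratios on the FPM + 1 scale from -1.07 to 0.49. Havcr2, which encodes TIM-3, had 59.4 FPM against 126 in PD1+ CD4 cells and was the called gene, at a log2 ratio of -1.09 (-1.44 to -0.75), which was -0.87 and no call within 1 kb of the gene ends. Pdcd1, which encodes PD-1, had 153 against 229.7 FPM (-0.59, -0.81 to -0.37), and Tox, a factor of exhausted T cells, 207 against 359 (-0.79, -0.98 to -0.61). The list median was -0.58. On the other side, Klf2, a factor of T cell circulation, had 107 against 53.1 FPM (1.02, 0.72 to 1.31; 0.86 to 0.97 under 4 other settings, which end its call), and Gpr15, a colon-homing receptor gene, 30.1 against 10.3 (1.55, 0.94 to 2.15). Each was the only member called higher of its list, 1 of 10 circulation genes and 1 of 14 residency genes. From 10 type 2 genes 3 were lower, the cytokine genes Il4 and Il13 and the chemokine receptor gene Ccr8, at 28.6 against 74.7 FPM. Both CD8 genes were lower too, and CD8 nuclei under the PD1+ CD4 label were not tested for.

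By the interval bound nearest 0, the leading genes higher than in PD1+ CD4 cells were Zfpm2, Olfr9, Unc5c, the C1 inhibitor gene Serping1, Olfr157, Spsb4, Cdh10 and Rnf32. Olfr9, an olfactory receptor gene, had 37.1 FPM against 6.02 (2.62, 1.97 to 3.28). Zfpm2 rested largely on 1 nucleus, which gave 43 of its 71 fragments, and without the nucleus giving most fragments in each label its log2 ratio was 2.15 in place of 3.11. The leading lower genes were Cx3cl1, the fractalkine gene (4.63 against 74.7 FPM), Mfsd6l, Kcnk10, the clotting factor gene F13a1, Tff1, Fam20c, Krt17 and Lad1. Mfsd6l had 0 fragments in Mucosal Th1 cells. With 3 fragments put in their place its log2 ratio was -3.03, and the upper interval bound from the counts was -2.71. Tff1, a trefoil factor gene of the stomach, had 7.72 against 83.5 FPM.

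Tumor and cecum were then compared within the label. Of 13966 qualifying genes, 35 were higher (0.251%) and 38 lower (0.272%) in Mucosal Th1 cells of the tumor, with a median log2 ratio of -0.01. Without the nucleus giving most fragments of each gene, these counts were 8 and 74. Of 166 qualifying list members 0 were past a log2 ratio of 1 in either direction, and they ranged from -0.77 (Cd160, an inhibitory receptor gene) to 0.97 (Cebpa), with a median of 0.02. The defining genes were close to level, with log2 ratios of tumor over cecum of -0.14 (-0.42 to 0.14) for Cd4, -0.05 (-0.50 to 0.37) for Ifng, -0.19 (-0.44 to 0.06) for Tbx21 and -0.08 (-0.31 to 0.14) for Il12rb2. The gut-homing gene Gpr15 was at 0.10 (-0.45 to 0.62), Pdcd1 at -0.02 (-0.25 to 0.20) and Havcr2 at 0.04 (-0.34 to 0.40). Among smaller differences, Ccr7, a lymph node homing receptor gene, had 62.2 FPM in cecal nuclei and 88.8 in the tumor (0.51, 0.19 to 0.82), Lag3, an inhibitory receptor gene, 85.5 and 64.1 (-0.42, -0.77 to -0.08), and Stat4 305 and 253 (-0.27, -0.45 to -0.10). These 3 genes were chosen after their values were seen.

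Several of the genes named between the tissues rested on single nuclei. They were ordered by the interval bound nearest 0, not by the ratio. Of the 8 highest, Zfpm2 (3.01), Abcc12 (1.68) and Rps6kc1 (1.25) took 43 of 71, 21 of 41 and 54 of 102 tumor fragments from 1 nucleus each, and with the top nucleus of each library left out their log2 ratios were 1.83, 0.70 and 0.19. Of the 8 lowest, Gata6 (-2.01) took 51 of 82 cecum fragments from 1 nucleus, and its ratio was -0.93 with the top nucleus of each library left out. Sema3a, a semaphorin guidance gene, did not, with 27 fragments from 15 nuclei in the tumor and 26 from 22 in the cecum (2.08, 1.25 to 2.91), where Th17 cells had 0.06 (-1.02 to 1.27), Tfh-like cells 1.02 (-0.43 to 2.35) and Cytotoxic CD8 cells 0.58 (-0.16 to 1.34). Carmil1 (1.59), Pgpep1l (1.45), the granulocyte factor gene Csf3 (1.48) and Cdh10 (1.37) were the others higher. Trpc1, a cation channel gene, had 196 fragments in the cecum (37.2 FPM) and 21 in the tumor (16.2 FPM), a log2 ratio of -1.20 (-1.92 to -0.54), and in Tfh-like cells -1.17 (-2.22 to -0.26). Apcdd1, Gpa33, Tmbim7, Tm6sf2, Cnnm1 and Mypop were the others lower, from -0.68 to -1.88; Cnnm1 and Mypop, placed by their narrow intervals, missed the call. Tissue, library and preparation cannot be told apart in these ratios.

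Around Ifng, tiles of 500 bases were read up to 100 kb on both sides of the gene. In the tile just before the start site, centred 0.30 kb before it, Mucosal Th1 cells had 22.9 FPM, Th17 cells 3.44 and Tfh-like cells 4.22 in cecal nuclei, and 23.2, 6.41 and 8.92 FPM in the tumor. The tile centred 5.30 kb before the start was open in Mucosal Th1 cells at 15.7 FPM in cecal nuclei and 13.1 in the tumor, against 1.15 and 2.99 in Th17 cells. PD1+ CD4 cells of the tumor (18.4 and 10.6 FPM at these 2 tiles) and Cytotoxic CD8 cells (24.2 and 15.4 there) resembled Mucosal Th1 cells. The tile that holds the start itself had 13.3 FPM in Mucosal Th1, 4.59 in Th17 and 2.34 in Tfh-like cells of the cecum. In the tumor that tile had 11.6, 1.28 and 10.7 FPM, so Mucosal Th1 and Tfh-like cells were alike there. An element further from the gene was open in all 3 helper labels. The tile centred 21.8 kb before the start, chosen after its values were seen, had 32.2 FPM in Mucosal Th1, 33.3 in Th17 and 32.4 in Tfh-like cells of the cecum. In the tumor it had 37.1, 19.7 and 33.9 FPM. A pair of adjoining tiles about 95 kb after the start went the other way, with 13.8 and 16.1 FPM in Th17 cells of the cecum and 11.5 in both tiles in the tumor, against at most 1.54 FPM in Mucosal Th1 cells; they too were chosen after their values were seen.

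**Figure D4:**
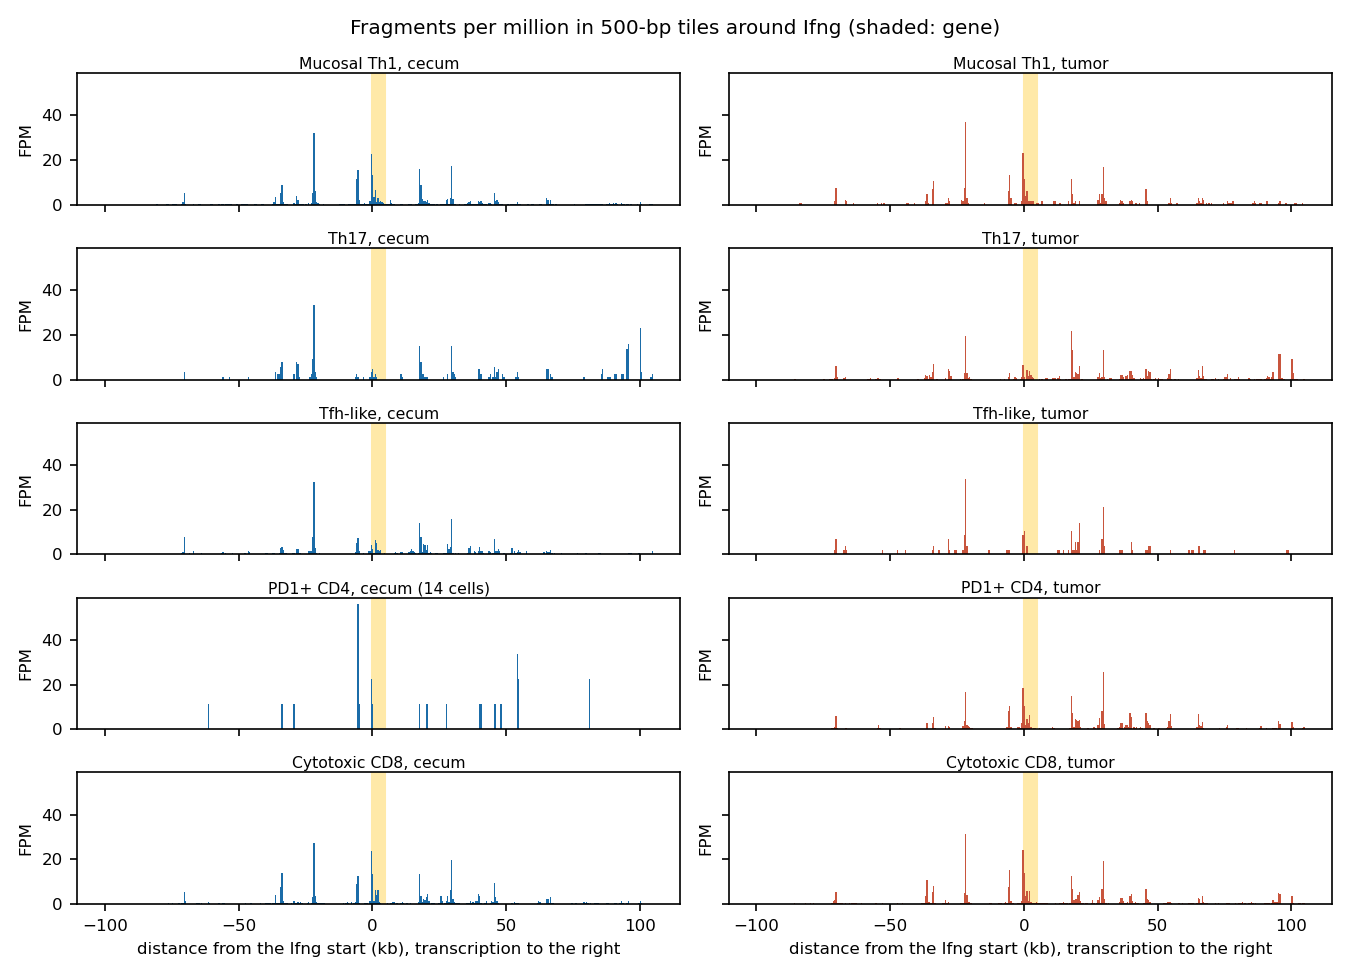
FPM (vertical axes) in 500-bp tiles by distance from the Ifng start in kb (horizontal axes), for Mucosal Th1, Th17, Tfh-like, PD1+ CD4 and Cytotoxic CD8 cells in the cecum (left) and tumor (right); the gene is shaded. Signal at the start and 5.30 kb before it is low in Th17 cells, the element 21.8 kb before it is present in each of these labels except the 14 PD1+ CD4 nuclei of the cecum, and the tiles near 95 kb after it are open in Th17 cells.

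Of 10 Ifng tiles with at least 20 fragments over Mucosal Th1 and Th17 in each library, 5 were higher in Mucosal Th1 in both libraries, 2 of them past a log2 ratio of 1, and 1 was lower. Over all 43762 tiles of the genome with that minimum, 33.4% were higher and 23.9% lower in both libraries, 1.18% were past 1 and 1.47% past -1. At the Tbx21 locus, read to 50 kb, 11 of 15 tiles were higher in both libraries and 0 lower, and 5 were past 1. Its leading tile lies within the gene, at chr11:97104001-97104500. It had 33.6 FPM in Mucosal Th1, 5.74 in Th17 and 10.3 in Tfh-like cells of the cecum, and 34.0, 3.85 and 8.92 FPM in tumor nuclei. The log2 ratios over Th17 were 2.55 (1.30 to 4.19) and 3.14 (2.09 to 4.36), where the promoter itself had not separated the labels in the cecum. Without nuclei above 3 times their library's median fragment count, 3 Ifng tiles were higher in both libraries. Il12rb2 had 5 of 6 tiles higher (3 without those nuclei) and 0 past 1, Ccl5 4 of 4 with 2 past 1, and Cxcr3 2 of 6, both past 1, with 2 others lower. At Il18r1 0 of 9 tiles were higher in both libraries (1 without those nuclei) and 6 were lower.

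Distal accessibility was read over 500-base tiles at least 2 kb from either end of any gene. Of 19017 such tiles with at least 30 Mucosal Th1 fragments in the cecum, 1134 (5.96%) had a log2 ratio of at least 1 over both Th17 and Tfh-like cells in the cecum, which chose them. They formed 967 runs, 55.3% lay within a gene span, and those outside lay a median of 23.5 kb from the nearest. The tumor library did not enter the choice. There the chosen tiles had a median log2 ratio of 1.01 over Th17, and 570 of them (50.3%) were past 1, against 0.12 and 10.5% over all distal tiles. Over Tfh-like cells the median was 1.37 with 63.7% past 1, against 0.16 and 21.5%. Over PD1+ CD4 cells, which the choice did not use either, the median was 0.37 with 22.7% past 1, against 0.16 and 9.47%. The share past -1 over PD1+ CD4 cells was 5.73% in the chosen and in all distal tiles. The fragment minimum held for Mucosal Th1 cells only, so tiles open in them passed it more easily. Of all distal tiles, 60.1% were above 0 over PD1+ CD4 cells.

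Cytotoxic labels of the tumor, which the choice did not use, were open at the chosen tiles too. Summed over the chosen tiles, Mucosal Th1 cells of the tumor had 101.9 fragments per 10000 (100.2 to 103.7). CD8aa cells had 114.8, Cytotoxic gdT cells 114.2, PD1+ CD8 cells 111.3 and Cytotoxic CD8 cells 109.96, and Innate-like T#2 cells 103.2, so Mucosal Th1 cells came at order 6 of 17. Among CD4+ labels, PD1+ CD4 cells had 83.0, newly activated CD4 cells 71.0 and IL10+ Treg cells 47.5. Th17 and Tfh-like cells had 47.5 and 39.7, and since they set the choice, with a fragment minimum in Mucosal Th1 cells, the place of Mucosal Th1 cells above CD4+ labels follows in part from it. In the tumor the median log2 ratio of Mucosal Th1 over Cytotoxic CD8 cells at these tiles was -0.04, with 10.4% past 1, against 0.07 and 7.49% over all distal tiles. Over IL10+ Treg cells it was 1.03, with 52.8% past 1, against 0.13 and 14.65%.

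**Figure D5:**
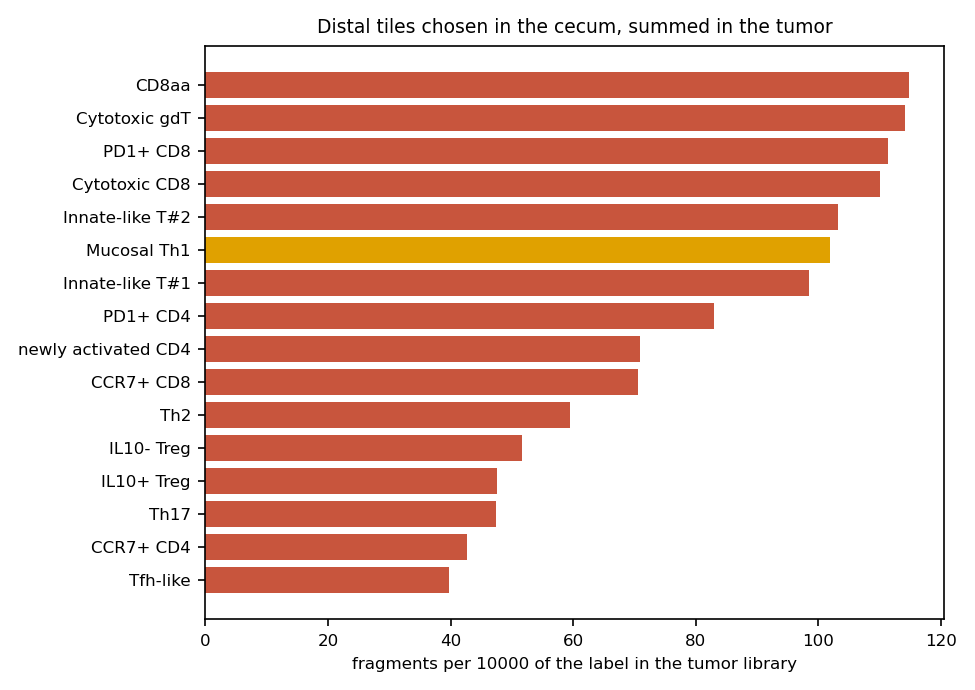
Fragments in the distal tiles chosen in the cecum library, per 10000 fragments of each label in the tumor library (horizontal axis), for 16 of the 17 labels (vertical axis). Mucosal Th1 cells (yellow, 101.9) lie near the Cytotoxic CD8 and Cytotoxic gdT labels; Th17 and Tfh-like cells, whose cecum values set the choice of tiles, are low.

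The 10 leading tiles were ordered by their smallest ratio in both libraries, so their values, those of the tumor too, are a description. The first, chr2:181879001-181879500, 8.17 kb from Polr3k, had 9.10 FPM in Mucosal Th1, 1.15 in Th17 and 0.469 in Tfh-like cells of the cecum, and 17.8, 1.28 and 1.78 FPM in tumor nuclei. The tile within Zfp341, chr2:154615501-154616000, had 23.3, 4.59 and 5.16 FPM in cecal nuclei and 19.3, 2.99 and 3.57 in the tumor. Their log2 ratios over PD1+ CD4 cells in the tumor were 2.77 (1.79 to 3.79) and 2.43 (1.54 to 3.33). The tile within Tcf20, chr15:82906501-82907000, had low values in cytotoxic labels. It had 9.10 FPM in Mucosal Th1 cells of the cecum and 5.40 in the tumor, against 0.885 and 1.60 in Cytotoxic CD8, 0 and 0.289 in CD8aa and 0.332 and 0.716 in Cytotoxic gdT cells. A tile within Gas7, chr11:67480001-67480500, had 5.88 and 8.49 FPM in Mucosal Th1 and 0 fragments in Th17 cells of both libraries, and CD8aa cells of the tumor had 7.51 FPM there. The comparator values at such tiles rest on few fragments, 0 to 11 in Th17 and Tfh-like cells, which choice at high ratios favours.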

How the data were processed

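T cells were profiled by paired single-nucleus RNA and ATAC sequencing of 1 library per tissue. The authors aligned reads to mm10 with Cell Ranger ARC 2.0.0 and deposited unique fragments with the count of read pairs behind each (means of 4.29 in the cecum and 3.11 in the tumor). Labels came from the authors' Leiden clustering of the RNA after filters on mitochondrial reads, genes, UMIs, fragments and TSS enrichment; removal of doublets is not stated in the sources used here, and none were removed here. Both libraries together held 15621 labelled nuclei.

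A fragment counted once in a window when either end lay in it. Windows were RefSeq spans (GRCm38.p6) of 21888 genes with 5 kb added on both sides; that table gives no strand or exons, and neighbouring windows can share fragments. Of 194 list members 192 were matched. Labels were compared within a library, so depth was scaled to 1000000 fragments of the label, with a pseudocount of 1 FPM for calls and at least 50 fragments. Tumor and cecum libraries differed in depth and preparation, which scaling cannot separate from tissue. Single-gene ratios came from counts with exact conditional 95% intervals, shares with Clopper-Pearson and FPM with Poisson intervals. No tool for replicated tests could be used with 1 library per tissue.

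Named genes were the 8 highest and 8 lowest with the fragment minimum, called or not, by the smaller absolute ratio of both libraries. For PD1+ CD4 cells and tumor against cecum they were ranked by the interval bound nearest 0. Of the 3 tiles per locus and 10 distal tiles ranked likewise, only some are described. List genes were named where a list is described. Cells, lists and rules were chosen with earlier results of these data known. Scripts were tested on simulated data. Fragments were read with pyarrow 21.0.0 and numba 0.67.0 and tabulated with pandas 2.3.3 and numpy 2.4.6; intervals came from scipy 1.17.1 and plots from matplotlib 3.10.9, under Python 3.11.15. A type 17 list member, part of the tumor model's genotype and a label in the plots by label are not reported here.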

Additional observations from a re-analysis of the deposited data

Results flagged for a closer look

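Among the genes with at least 50 fragments, 1 gene was past a log2 ratio of 1 over Th17 cells in the cecum and past -1 in the tumor, with both counting intervals clear of 0. Over Zfp629, a zinc finger gene (chr7:127607028-127615785), Mucosal Th1 cells of the cecum had 14.4 FPM and Th17 cells 5.74, from 76 and 5 fragments. In the tumor the order was turned, with 9.26 FPM in Mucosal Th1 and 19.7 in Th17 cells, from 12 and 46 fragments. The log2 ratios of Mucosal Th1 over Th17 were 1.33 (0.04 to 2.99) and -1.09 (-2.14 to -0.15). No nucleus gave more than 5 of these fragments in any of the 4 groups. The gene was picked by these same ratios and intervals, so they are a description, and the difference between the tissues was not tested.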

How the results depend on the processing

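No paired analysis was possible because each tissue gave 1 library and the labels carry no replicate numbers. Counts of called genes were compared by size alone, so a level count need not hold the same genes. Within 1 kb of the gene ends, 37 genes were lower in tumor than in cecum, and 5 of them were among the 38 of the main setting. Of the 36 genes higher than in Th17, 4 were called there too, while all 36 were called with nuclei of at least 1000 fragments. Of the main results under the alternatives, 81 values stayed within their error or within 1.5 times of the count, and the following did not. As a share of the 9 CD4+ labels, Mucosal Th1 cells were 29.4% in the cecum and 6.40% in the tumor. Within 1 kb of the gene ends, 8 genes were higher and 13 lower than in Th17, 9 and 9 than in Tfh-like cells, 284 lower than in PD1+ CD4 cells and 13 higher in tumor than in cecum; log2 ratios over Th17 there were 0.40 (cecum) and 1.05 (tumor) for Tbx21, and in the tumor 0.14 for Cd4 and 1.78 for Ifng. Without a fragment minimum the higher and lower counts were 128 and 293 (Th17), 309 and 224 (Tfh-like), 456 and 1083 (PD1+ CD4), and 509 and 356 (tumor over cecum). With a minimum of 200 fragments, which tests fewer genes, they were 9 and 31, 8 and 3, 12 and 259, and 1 and 1. A pseudocount of 5 FPM gave 37 and 384 (PD1+ CD4) and 10 and 4 (tumor over cecum), and scaling to fragments near gene ends gave 55 higher in the tumor; that scaling moved the median of all genes over PD1+ CD4 by -0.15. Without the nucleus giving most fragments of each gene, chosen after seeing the data, 31 were lower than in Tfh-like cells, and 8 were higher and 74 lower in the tumor. Without nuclei above 3 times the library's median fragment count, 56 genes were lower than in Th17, and 3 tiles at Ifng, 3 at Il12rb2 and 1 at Il18r1 were higher. A minimum of 60 fragments chose 359 distal tiles. The cause of these shifts was not tested.

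Single genes were scored only in settings where they met the fragment minimum, and a gene called in neither setting counted as kept. Of the values of single genes, 644 kept their side of the threshold, 32 lost it, 2 gained it (both Cnnm1) and 0 turned. Ifng over Th17 lost it with a pseudocount of 5 (0.92) and with the end scaling (0.99), and over Tfh-like cells within 1 kb of the gene ends (0.76) and with a pseudocount of 5 (0.96). The shallowest groups were Tfh-like cells of the tumor (89 nuclei, 560742 fragments), Th17 cells of the cecum (131 nuclei, 870836 fragments) and Mucosal Th1 cells of the tumor (196 nuclei), apart from the 14 PD1+ CD4 nuclei of the cecum. A comparator value of 0 at a tile is a limit of counting and not a closed site.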

Other observations

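In the cecum, 11 Mucosal Th1 nuclei gave a large share of the fragments of 12 genes, and in the tumor 4 nuclei of 4 genes. A single nucleus with 956 fragments gave 35 of 64 fragments over Ano4 and 19 of 29 over Ush1c, which lie on chromosomes 10 and 7. Another gave 16 of 21 over Gnat3. At Rps6kc1 the nucleus that gave 54 of 102 tumor fragments held 102 within 500 kb on both sides of the window and 849 on the chromosome.

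The same rule for tumor over cecum gave 94 higher and 24 lower of 12663 genes in Th17 cells, 23 and 121 of 12203 in Tfh-like cells, 50 and 18 of 14307 in IL10+ Treg cells and 40 and 25 of 14337 in Cytotoxic CD8 cells. These labels differ in depth between the libraries, with 870836 cecum and 2339396 tumor fragments in Th17 and 2132387 and 560742 in Tfh-like cells, and the part of depth in these counts was not tested. Of the genes tested against both helper comparators, Myo16, a myosin gene, was lower than in Th17 and higher than in Tfh-like cells.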
